A study of Homo sapiens with 9 samples.

Results

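HIF1A, its prolyl hydroxylases EGLN1 and EGLN3, and 7 hypoxia-response genes outside glycolysis (VEGFA, ADM, BNIP3, BNIP3L, ANKRD37, NDRG1 and P4HA1) were followed across 9 RNA-seq libraries of K562 cells. These 10 genes were taken by name from a table of 58347 genes. All 10 were among the 23675 genes with enough reads to be tested, although ADM was read only between 1 and 24 times per library.

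K562 is a human erythroleukaemia line. All libraries came from K562-FIRE cells, which stably express dCas9 (a Cas9 that binds DNA at a guide RNA without cutting), MS2-Fkbp and SS18-Frb, each from the constitutive EF1a promoter on a construct with its own selection marker. Rapamycin joins Fkbp to Frb and thereby brings SS18, a subunit of the BAF chromatin remodelling complex, to the guide. It also inhibits the kinase complex mTORC1, whichever guide a cell carries. The 4 groups were the HBG1 promoter sgRNA with DMSO (n = 3), the same guide with 10 nM rapamycin (n = 3), a non-targeting sgRNA with DMSO (n = 1) and a non-targeting sgRNA with 10 nM rapamycin (n = 2), all for 24 h. The labels do not say whether replicates were separate cultures or whether the cells were 1 clone, so p-values measure the spread between these libraries, which may be technical. No group was labelled as hypoxic.

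HIF1A encodes the oxygen-regulated alpha subunit of hypoxia-inducible factor 1. When oxygen is present, the prolyl hydroxylases (EGLN1, EGLN2 and EGLN3) mark the HIF alpha proteins, VHL recognises the mark, and the proteins are degraded. When oxygen is short, the alpha subunit persists, pairs with ARNT and binds hypoxia-response elements, DNA sites that share a short core. HIF1A is therefore controlled largely as a protein, while its targets respond as RNA. mTORC1 activity is known to favour HIF1A synthesis. Several of these targets, EGLN3 among them, are used as RNA readouts of HIF activity, and BNIP3L is also part of the erythroid programme, in which it clears mitochondria from maturing red cells.

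The DNA before RefSeq starts is shown first, because the core of the hypoxia-response element is what the targets share as a class. RefSeq (GRCh38.p14) gave an upstream sequence for 7 of the 10 genes. VEGFA, BNIP3L and NDRG1 are named only. The 250 bases before each start were searched for ACGTG and GCGTG on both strands, so that the reverse-strand matches read CACGT and CACGC, and a CACGTG counts once on each strand. Of all 35116 RefSeq upstream windows of this length, 43.2% held at least 1 match, 7.76% held 3 or more and 0.646% held 6 or more. Windows of tested genes held matches more often. In windows of 300 bases, which reach past the start, 58.9% of those of tested genes held a match, against 48.4% of all. Of the 8 such windows of the genes followed here, 6 did (75%). BNIP3 held 6 matches, ANKRD37 held 3, and HIF1A, EGLN1, ADM and P4HA1 held 1 each. A second RefSeq window of HIF1A (chr14:61697462-61697711) held none and is not printed. EGLN3 had none of these letters in its window. A match describes the sequence and does not show that a factor binds. A RefSeq start can also lie inside a gene as annotated for the positions given below. For EGLN1, ADM and ANKRD37, 0 of the 250 bases lay outside annotated exons, so their matches are in exon sequence. For P4HA1 142 bases lay outside exons, but its printed stretch is inside the gene. The windows of EGLN3 and the second of HIF1A also lie inside their genes. Stretches with the matches in capitals follow, each 5′ to 3′ on the strand of the gene. They are given at length for HIF1A (chr14:61695263-61695512, plus strand) and for BNIP3 (chr10:131982014-131982173, minus strand), whose matches form the densest group among these genes. For the others only the bases around the matches are given.
HIF1A: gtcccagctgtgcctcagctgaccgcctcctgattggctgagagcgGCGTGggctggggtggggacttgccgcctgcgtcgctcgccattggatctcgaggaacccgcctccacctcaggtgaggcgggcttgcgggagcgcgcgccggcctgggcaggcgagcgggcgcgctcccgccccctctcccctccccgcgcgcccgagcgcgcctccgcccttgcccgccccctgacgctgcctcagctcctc
BNIP3: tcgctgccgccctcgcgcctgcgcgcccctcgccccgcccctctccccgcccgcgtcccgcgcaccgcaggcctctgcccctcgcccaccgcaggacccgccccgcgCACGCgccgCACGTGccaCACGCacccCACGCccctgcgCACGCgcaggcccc
ANKRD37: ctcCACGTGccagtgtttgtgtACGTGcgg
EGLN1: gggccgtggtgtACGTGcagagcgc
ADM: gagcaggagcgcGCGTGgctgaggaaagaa
P4HA1: tgtgatcgagctCACGTagcgagggctgca
The short stretches lie at chr4:185396676-185396705 (ANKRD37, plus strand), chr1:231422288-231422312 (EGLN1, minus strand), chr11:10304960-10304989 (ADM, plus strand) and chr10:73096935-73096964 (P4HA1, minus strand). BNIP3 and ANKRD37 each hold a CACGTG.

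The libraries held 19797409 to 31619671 counts. HBG1, the gene under the guide, stood at 137 to 436 CPM (counts scaled to a common library size) with the HBG1 sgRNA and DMSO and at 1533 to 2448 with rapamycin. With the non-targeting sgRNA it stood at 8233 with DMSO and 8851 to 8944 with rapamycin. Its reads may be shared with the near-identical HBG2. All 7 markers of K562 were present in all libraries, among them the erythroid regulator GATA1 at 190 to 274 CPM. Their levels were not even, since the embryonic globin HBE1 ran from 2030 to 14592 CPM and HBZ from 1790 to 3564. The summed level of the 7 was 9219 to 15992 CPM with the HBG1 sgRNA and DMSO, 10298 to 19194 with rapamycin, 4599 with the non-targeting sgRNA and DMSO, and 5372 to 6489 with rapamycin, so it did not overlap between guides. Among 14 markers of other cell types, CD3E, MS4A1, CSF1R, CDH5 and KDR had at most 12 counts in any library, while KRT8 stood at 320 to 524 CPM, EPCAM at 36.9 to 50.01, LYZ at 14.0 to 28.97 and COL1A2 at 3.01 to 24.8. The summed level of the 14 was 398 to 566 CPM with the HBG1 sgRNA and DMSO, 517 to 625 with rapamycin, 510 with the non-targeting sgRNA and DMSO, and 543 to 589 with rapamycin. The part of either sum in the results was not tested. In bulk RNA, fewer cells of a type and less RNA per cell cannot be told apart. Replicate 1 of the HBG1 sgRNA stood apart from replicates 2 and 3 in both treatments, and values without it are given beside the calls and list counts they change.

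In cells with the HBG1 sgRNA, VEGFA fell 1.42-fold and BNIP3L rose 1.32-fold with rapamycin. VEGFA is a secreted factor for blood vessel growth and BNIP3L a receptor for mitochondrial clearance. These were the 2 of the 10 genes that passed edgeR's quasi-likelihood test at the threshold of 0.05, after Benjamini-Hochberg adjustment across the 23675 tested genes. Over all tested genes 6.8% passed (1609), 2.75% as higher and 4.05% as lower. The median log2 fold change was -0.02 over the 10 genes and 0.02 over all tested genes. Under upper quartile scaling 819 genes were called higher and 673 lower, against 650 and 959 here, and the same number of these 10 genes was called. Replicate numbers were also used as pairs of the HBG1 sgRNA libraries, although the data set apart only replicate 1 and do not tell replicates 2 and 3 apart. With the replicate number as a block, HIF1A, EGLN1 and BNIP3 also passed as lower, so that 1 gene rose and 4 fell among the 9 that could be tested. In that fit 17.1% of 20179 genes passed.

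**Figure D1:**
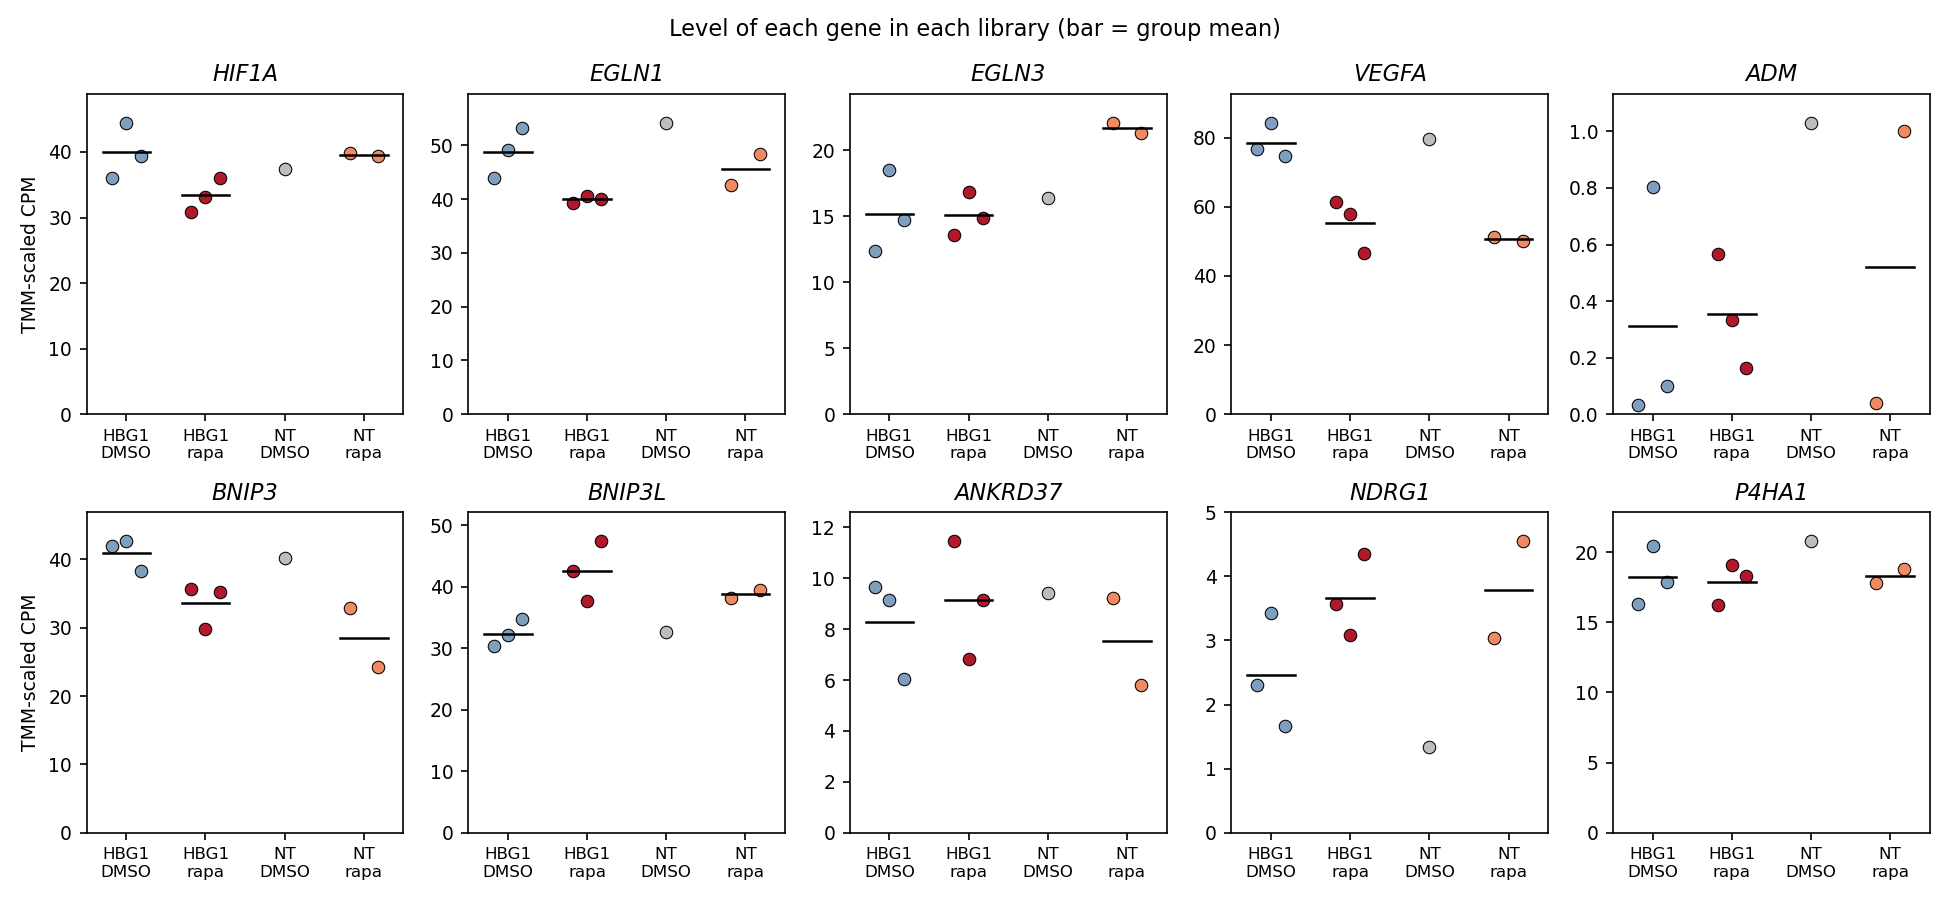
TMM-scaled CPM of each gene (vertical axes, each from 0) in the 9 libraries, by guide (HBG1 sgRNA or non-targeting, NT) and treatment (DMSO or rapamycin, rapa), with 1 point per library and a bar at the mean of groups with more than 1 library. For VEGFA and BNIP3 all 5 rapamycin libraries lie below all 4 DMSO libraries, for BNIP3L all lie above, and ADM stays at or under 1.03 CPM.

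HIF1A itself (ENSG00000100644, GRCh38 chr14:61695513-61748259) was expressed in every library, at 30.9 to 44.5 TMM-scaled CPM. With the HBG1 sgRNA it stood at 36.0, 44.5 and 39.4 CPM in the DMSO libraries and at 30.9, 33.2 and 36.0 CPM in the rapamycin libraries. The highest rapamycin library reached the level of the lowest DMSO library, so the groups touched at their edges. The log2 fold change was -0.26 (SE 0.0997, adjusted p = 0.144 by edgeR). With the replicate block it was -0.25 at an adjusted p of 0.0479, just inside the threshold. With the non-targeting sgRNA, HIF1A stood at 37.4 CPM in the single DMSO library (95% Wilson interval 34.96 to 39.9, counting error only) and at 39.8 and 39.4 CPM with rapamycin. The untested log2 fold change there was 0.08, with both rapamycin libraries above the DMSO library. Of HIF1A's exon bases, 2.87% also lie in AL137129.1 on the same strand, whose counts came to 23.5% of those of HIF1A, and 2.27% in the antisense gene HIF1A-AS1, whose counts came to 10.9%. The strand setting of the counting is not given in the sources used here, and it could not separate genes of the same strand.

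The other HIF alpha subunit of these cells, EPAS1 (HIF2A), was read at 43.1, 63.3 and 62.1 CPM with the HBG1 sgRNA and DMSO and at 54.8, 94.4 and 88.0 CPM with rapamycin. Replicate 1 was the lowest of its group in both treatments. EPAS1 was higher with rapamycin in each of the 3 numbered pairs, and the log2 fold change of 0.50 (SE 0.165) did not pass (adjusted p = 0.0860 by edgeR). Of 20 alternative settings it did not pass in 15, and its log2 fold change went down to 0.34. It passed in 5, among them edgeR without rapamycin replicate 1, the lowest of its group (0.70, adjusted p = 0.00166). The others included edgeR with the replicate block (adjusted p = 0.000101) and without HBG1 replicate 1 in both arms (0.54, adjusted p = 0.000146). With the non-targeting sgRNA it stood at 60.7 CPM with DMSO and at 84.2 and 81.2 CPM with rapamycin. Per kb of exon, the ratio of HIF1A to EPAS1 was 1.18, 0.996 and 0.899 in the HBG1 sgRNA DMSO libraries and 0.800, 0.498 and 0.580 in the rapamycin libraries. With the non-targeting sgRNA the ratio was 0.872 with DMSO and 0.670 and 0.687 with rapamycin. The ratio was thus lower in all 5 rapamycin libraries than in any DMSO library, with a narrow gap (0.800 against 0.872). Over both guides, HIF1A and EPAS1 each overlapped between treatments. With the non-targeting sgRNA HIF1A was not lower with rapamycin, so the lower ratio there came from EPAS1. The share of gene pairs that separate in this way was not counted, and the ratio carries no test. ARNT, the shared beta subunit, moved from a mean of 43.4 ± 3.69 CPM (SD, n = 3) to 49.0 ± 2.13 CPM (n = 3), a log2 fold change of 0.18 that did not pass (adjusted p = 0.282 by edgeR). HIF3A and ARNT2 had too few reads to be tested.

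**Figure D2:**
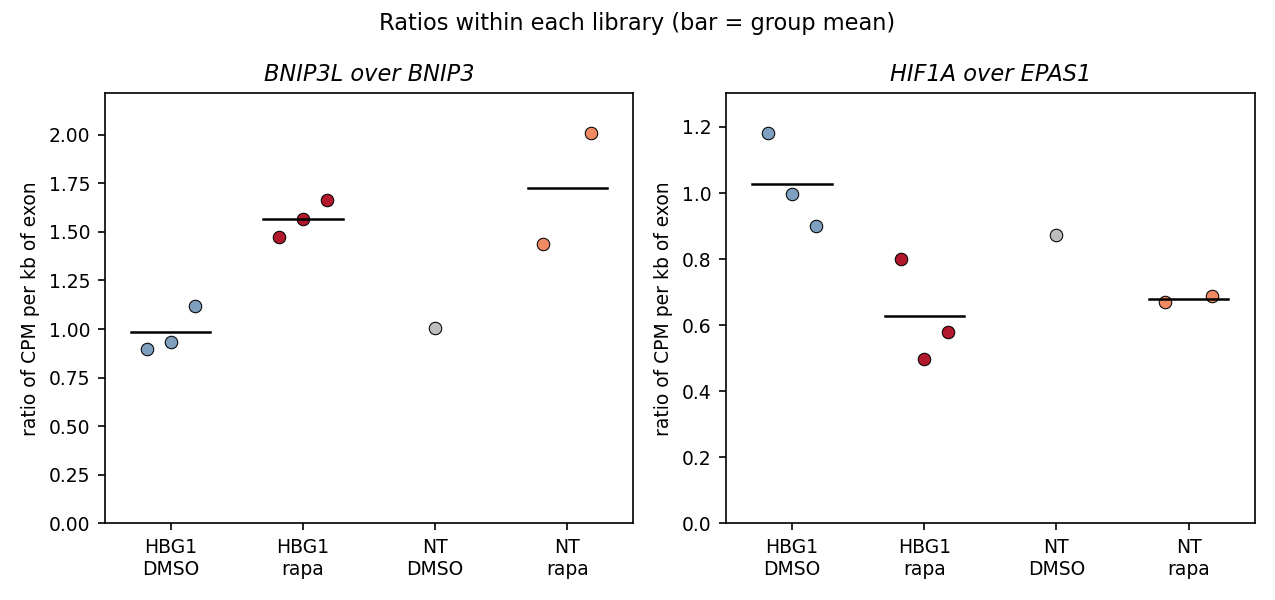
Ratio of CPM per kb of exon within each library (vertical axes from 0), for BNIP3L over BNIP3 (left) and HIF1A over EPAS1 (right), by guide and treatment, with 1 point per library and a bar at the mean of groups with more than 1 library. BNIP3L over BNIP3 runs from 0.895 to 1.12 in DMSO libraries and from 1.44 to 2.01 in rapamycin libraries, and HIF1A over EPAS1 from 0.872 to 1.18 and from 0.498 to 0.800.

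EGLN1 (PHD2, ENSG00000135766, chr1:231363751-231425044) is the main oxygen-sensing prolyl hydroxylase in most cells and is itself a HIF target. It stood at 43.9, 49.2 and 53.2 CPM in the HBG1 sgRNA DMSO libraries and at 39.3, 40.6 and 40.1 CPM in the rapamycin libraries. These groups did not overlap, and the rapamycin libraries lay close together (SD 0.625 CPM, against 4.66 CPM with DMSO). The share of all tested genes that separate between treatments with this guide alone was not counted. Nothing is drawn from such a separation, for this gene or those below. The log2 fold change of -0.28 (SE 0.0925) did not pass with 1 mean per group (adjusted p = 0.0788 by edgeR). It passed with the replicate block (adjusted p = 0.0191) and without HBG1 replicate 1 in both arms (-0.34, adjusted p = 0.0296). With the non-targeting sgRNA, EGLN1 stood at 54.2 CPM with DMSO (95% Wilson interval 51.3 to 57.3) and at 42.7 and 48.4 CPM with rapamycin, an untested log2 fold change of -0.25.

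EGLN3 (PHD3, ENSG00000129521, chr14:33924231-34462774), a hydroxylase known for strong induction in hypoxia, differed little between treatments with the HBG1 sgRNA. It stood at 12.4, 18.5 and 14.8 CPM with the HBG1 sgRNA and DMSO and at 13.6, 16.9 and 14.9 CPM with rapamycin. The groups overlapped throughout, and the log2 fold change was -0.0085 (SE 0.146, adjusted p = 0.984 by edgeR). In the non-targeting cells, it stood at 16.4 CPM with DMSO (95% Wilson interval 14.8 to 18.1) and at 22.1 and 21.3 CPM with rapamycin, the 2 highest values of the 9 libraries. The third hydroxylase, EGLN2 (PHD1), fell from 97.6 ± 4.61 CPM (SD, n = 3) to 79.3 ± 4.59 CPM (n = 3) with the HBG1 sgRNA, by 0.30 on the log2 scale (SE 0.0815, adjusted p = 0.0365 by edgeR). Among the libraries of the non-targeting guide, it stood at 103.8 CPM with DMSO and at 80.9 and 69.9 CPM with rapamycin. The EGLN2 call was lost under 8 of 20 alternative settings, among them the removal of HBG1 replicate 1 from both arms (adjusted p = 0.0701). Per kb of exon, EGLN2 exceeded EGLN1 in every library, at a ratio of 1.60 to 2.48.

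VEGFA (ENSG00000112715, chr6:43770184-43786487) encodes the secreted factor that drives the growth of blood vessels and is among the best-known HIF targets. It stood at 76.6, 84.4 and 74.8 CPM in the HBG1 sgRNA DMSO libraries and at 61.5, 57.9 and 46.6 CPM in the rapamycin libraries. The groups were well separated, with means of 78.6 ± 5.08 CPM (SD, n = 3) and 55.3 ± 7.79 CPM (n = 3). VEGFA fell by 0.51 on the log2 scale (SE 0.0983, adjusted p = 0.00577 by edgeR), and it was lower in 3 of 3 numbered pairs, at -0.32, -0.54 and -0.68. Under the non-targeting guide it stood at 79.6 CPM with DMSO (95% Wilson interval 76.1 to 83.3) and at 51.2 and 50.2 CPM with rapamycin, an untested log2 fold change of -0.65. The lower level was thus seen with both guides. VEGFA kept its call under all 20 alternative settings, with log2 fold changes of -0.61 to -0.40.

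ADM (ENSG00000148926, chr11:10304680-10307397) encodes adrenomedullin, a vasodilator peptide that many cells induce in hypoxia. In K562 it was barely read. The HBG1 sgRNA libraries had 1, 23 and 2 counts with DMSO and 11, 7 and 5 counts with rapamycin, and the non-targeting libraries had 24 counts with DMSO and 1 and 22 counts with rapamycin. Single libraries within a group differed by more than the groups did, so no difference could be resolved at this depth (log2 fold change 0.12, SE 1.06, adjusted p = 0.967 by edgeR).

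BNIP3 and BNIP3L (NIX) are paralogs, outer-membrane receptors that recruit the autophagy machinery to mitochondria, and both are described as HIF targets. Their estimates had opposite signs. BNIP3 (ENSG00000176171, chr10:131966455-131982013) stood at 41.9, 42.6 and 38.3 CPM with the HBG1 sgRNA and DMSO and at 35.7, 29.7 and 35.2 CPM with rapamycin. The groups did not overlap, a trait whose share over all tested genes was not counted for this guide alone. The log2 fold change of -0.29 (SE 0.114) did not pass with 1 mean per group (adjusted p = 0.155 by edgeR). It passed with the replicate block (adjusted p = 0.0327). In the non-targeting cells, BNIP3 stood at 40.2 CPM with DMSO (95% Wilson interval 37.7 to 42.9) and at 32.8 and 24.3 CPM with rapamycin, an untested log2 fold change of -0.49.

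BNIP3L (ENSG00000104765, chr8:26382898-26505636) stood at 30.3, 32.1 and 34.7 CPM with the HBG1 sgRNA and DMSO and at 42.6, 37.6 and 47.4 CPM with rapamycin. All rapamycin libraries were above all DMSO libraries, again without a share over all tested genes for this guide alone. It rose by 0.40 on the log2 scale (SE 0.101, adjusted p = 0.0252 by edgeR), in 3 of 3 numbered pairs. Among the libraries of the non-targeting guide, it stood at 32.7 CPM with DMSO (95% Wilson interval 30.4 to 35.1) and at 38.2 and 39.5 CPM with rapamycin, an untested log2 fold change of 0.25. The call depended on single libraries. It was lost without DMSO replicate 1 (adjusted p = 0.0713), DMSO replicate 2 (0.0950) or rapamycin replicate 3 (0.139), and without HBG1 replicate 1 in both arms (0.0509), with log2 fold changes of 0.31 to 0.39. Per kb of exon, the ratio of BNIP3L to BNIP3 was 0.895, 0.932 and 1.12 in the HBG1 sgRNA DMSO libraries and 1.48, 1.56 and 1.67 in the rapamycin libraries. Under the non-targeting guide it was 1.01 with DMSO and 1.44 and 2.01 with rapamycin. On this scale the 2 receptors were read at like levels with DMSO, and BNIP3L was ahead in all 5 rapamycin libraries. With rapamycin BNIP3L lay wholly above its DMSO values and BNIP3 wholly below. Their ratio had to separate the treatments and adds nothing to the values of the 2 genes. The scale depends on the exon lengths used, 4307 bases for BNIP3L and 5325 for BNIP3, each from all annotated exons joined. In CPM alone, BNIP3 was above BNIP3L with DMSO (38.3 to 42.6 against 30.3 to 34.7). With rapamycin it was below (24.3 to 35.7 against 37.6 to 47.4).

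ANKRD37 (ENSG00000186352, chr4:185396021-185400628), an ankyrin-repeat protein gene often listed among HIF1A targets, showed no common direction. It stood at 9.66, 9.14 and 6.05 CPM with the HBG1 sgRNA and DMSO and at 11.5, 6.84 and 9.13 CPM with rapamycin (log2 fold change 0.13, SE 0.223, adjusted p = 0.796 by edgeR). In the non-targeting cells, it stood at 9.40 CPM with DMSO and at 9.24 and 5.82 CPM with rapamycin. Its values are uncertain, since 35.2% of its exon bases also lie in exons of UFSP2 on the other strand, a gene with 4271 counts over all libraries.

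NDRG1 (ENSG00000104419, chr8:133237171-133302022), a stress-responsive gene induced by hypoxia and by iron shortage, was low in K562. It stood at 2.30, 3.42 and 1.67 CPM with the HBG1 sgRNA and DMSO and at 3.56, 3.09 and 4.35 CPM with rapamycin. One DMSO library overlapped the rapamycin group, and the log2 fold change of 0.57 (SE 0.288) did not pass (adjusted p = 0.281 by edgeR). Among the libraries of the non-targeting guide, it stood at 1.33 CPM with DMSO, from 31 counts (95% Wilson interval 0.938 to 1.89), and at 3.04 and 4.55 CPM with rapamycin, an untested log2 fold change of 1.503.

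P4HA1 (ENSG00000122884, chr10:73007217-73096974) encodes the alpha subunit of the collagen prolyl hydroxylase, an enzyme distinct from the EGLN proteins. It stood at 16.3, 20.4 and 17.9 CPM with the HBG1 sgRNA and DMSO and at 16.3, 19.1 and 18.3 CPM with rapamycin. The groups overlapped almost fully (log2 fold change -0.02, SE 0.120, adjusted p = 0.940 by edgeR). Under the non-targeting guide it stood at 20.8 CPM with DMSO and at 17.8 and 18.8 CPM with rapamycin.

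**Figure D3:**
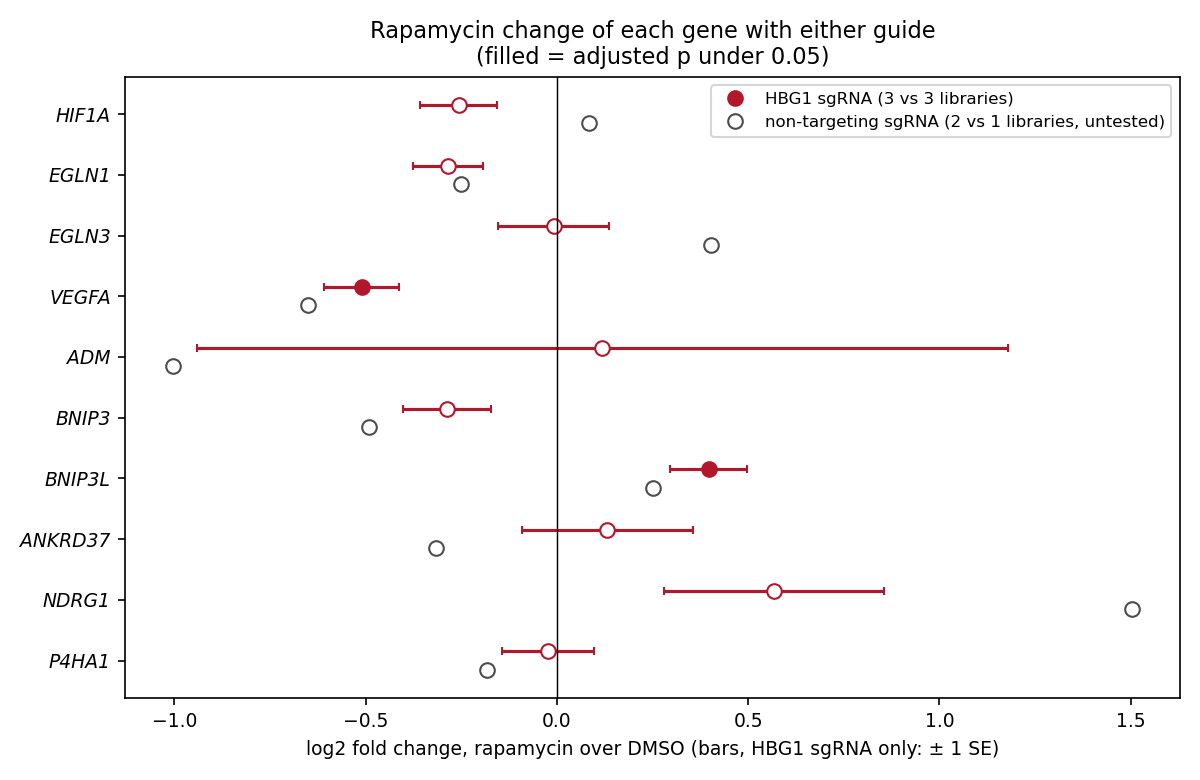
Log2 fold change between rapamycin and DMSO (horizontal axis) for each of the 10 genes, with the HBG1 sgRNA (red, 3 against 3 libraries, bars of ± 1 SE) and with the non-targeting sgRNA (grey, 2 against 1 libraries, untested). Filled points passed the test: VEGFA at -0.51 and BNIP3L at 0.40.

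Taking both guides together, 3 of the 10 genes separated the 5 rapamycin libraries from the 4 DMSO libraries without overlap, where 14.7% of all tested genes did. VEGFA spanned 46.6 to 61.5 CPM with rapamycin and 74.8 to 84.4 CPM with DMSO. BNIP3 spanned 24.3 to 35.7 and 38.3 to 42.6 CPM, and BNIP3L 37.6 to 47.4 and 30.3 to 34.7 CPM. In a model with treatment and guide as separate terms over all 9 libraries, 5 of the 10 genes passed, where 13.8% of tested genes did. VEGFA (-0.55, SE 0.0792, adjusted p = 0.000146 by edgeR), BNIP3 (-0.35, SE 0.0935, adjusted p = 0.0168) and EGLN1 (-0.27, SE 0.0742, adjusted p = 0.0182) fell. BNIP3L (0.35, SE 0.0826, adjusted p = 0.00739) and NDRG1 (0.82, SE 0.259, adjusted p = 0.0424) rose. This model assumes the same rapamycin change with either guide.

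The guides were compared directly under rapamycin, with 3 libraries of the HBG1 sgRNA against 2 of the non-targeting sgRNA. None of the 10 genes passed the edgeR test (0.0296% of tested genes did, 7 in all), and none passed with DESeq2 or limma voom. At an unadjusted p under 0.05, 2 of the 10 genes were below the line, where 6.27% of all tested genes were. These were EGLN3 and HIF1A. EGLN3 was lower with the HBG1 sgRNA (13.6 to 16.9 CPM) than with the non-targeting sgRNA (21.3 and 22.1 CPM), by -0.52 on the log2 scale (SE 0.160, adjusted p = 0.773 by edgeR). HIF1A was at 30.9 to 36.0 CPM against 39.4 and 39.8 CPM, a log2 difference of -0.24 (SE 0.111, adjusted p = 0.777 by edgeR). Neither gene's guides overlapped under rapamycin, nor did those of EGLN1 (39.3 to 40.6 against 42.7 and 48.4 CPM). The share of all tested genes that separate in this way was not counted, so nothing is drawn from it.

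Whether the rapamycin change itself differed between guides was tested as an interaction, which rests on the single non-targeting DMSO library. None of the 10 genes passed (0.00422% of tested genes did, 1 in all), and none was under an unadjusted p of 0.05, nor passed with DESeq2 or limma voom. The estimates were -0.34 for HIF1A (SE 0.181), -0.41 for EGLN3 (SE 0.262), -0.94 for NDRG1 (SE 0.553) and 0.14 for VEGFA (SE 0.176), each with an adjusted p of 0.99991 by edgeR. All 3 tests draw on the same 3 rapamycin libraries of the HBG1 sgRNA, so they are not independent of one another. Under DMSO the guides could be compared only as values, 3 libraries against 1. The log2 differences of the HBG1 sgRNA from the non-targeting sgRNA were 0.10 for HIF1A, -0.02 for VEGFA, 0.03 for BNIP3 and -0.01 for BNIP3L, and 0.90 for NDRG1, whose non-targeting value rests on 31 counts.

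The wider pathway was described with 5 gene lists, which were chosen with earlier results of these data known. The shares called in them describe these lists and are not independent of the data. Their counts stand beside the 2.75% of all tested genes called higher and 4.05% called lower, and beside 17.1% called in either direction with the replicate block. Of 21 HIF subunits and oxygen-sensing regulators, which include HIF1A, EGLN1 and EGLN3, 19 were tested with the HBG1 sgRNA. None rose and 2 fell with rapamycin by edgeR (median log2 fold change -0.06), while with the replicate block 1 rose and 5 fell. Without HBG1 replicate 1 in both arms 1 was called higher and 1 lower. The 2 were EGLN2, given above, and SIAH2, a ubiquitin ligase that acts on prolyl hydroxylases. SIAH2 fell from 51.4 ± 3.87 CPM (SD, n = 3) to 41.7 ± 1.83 CPM (n = 3), by 0.30 on the log2 scale (SE 0.0866, adjusted p = 0.0448 by edgeR). Its call was lost under 12 of 20 alternative settings, among them the removal of HBG1 replicate 1 from both arms (-0.24, adjusted p = 0.153 by edgeR). Under upper quartile scaling no gene of this list was called lower.

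Of 47 other HIF targets outside glycolysis, 39 were tested, none rose and 5 fell by edgeR, with a median log2 fold change of -0.10. With the replicate block 1 rose and 6 fell among 36, against 17.1% over all genes in that fit. The median over all tested genes was 0.02. DDIT4 (REDD1), an inhibitor of mTORC1 induced by hypoxia and by other stresses, fell most in size among them. It stood at 117, 78.4 and 85.6 CPM with the HBG1 sgRNA and DMSO and at 43.4, 27.0 and 26.0 CPM with rapamycin. The groups were far apart, and DDIT4 fell 2.94-fold (-1.55 on the log2 scale, SE 0.174, adjusted p = 0.000132 by edgeR). In the non-targeting cells, DDIT4 stood at 96.1 CPM with DMSO and at 34.4 and 29.3 CPM with rapamycin. LONP1, a mitochondrial protease, fell from 261.9 ± 5.11 to 175.5 ± 6.38 CPM (SD, n = 3 each; log2 fold change -0.58, adjusted p = 0.00016 by edgeR). JMJD6, an oxygenase (-0.42, adjusted p = 0.0255 by edgeR), ERO1A, an oxidase of protein folding (-0.36, adjusted p = 0.0465), and TFRC, the transferrin receptor (-0.28, adjusted p = 0.0183), were the others. The ERO1A call was lost under 11 of 20 alternative settings. The JMJD6 call was lost in 4 that left out 1 library (DMSO replicate 1 or 3, rapamycin replicate 2 or 3, adjusted p up to 0.103 by edgeR), and the TFRC call in 3 (DMSO replicate 2 or 3, rapamycin replicate 3, up to 0.0890). The count of genes called lower ran from 2 (without HBG1 DMSO replicate 3) to 8. CA9 and EPO, both classical HIF targets, had too few reads to be tested.

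The glycolytic HIF targets gave the highest share of calls among these lists. Of 21 tested, none rose and 11 fell by edgeR, with a median log2 fold change of -0.23. With the replicate block 2 rose and 12 fell. HK2, the inducible hexokinase, stood at 62.7, 74.2 and 69.5 CPM with the HBG1 sgRNA and DMSO and at 26.4, 33.4 and 35.01 CPM with rapamycin (log2 fold change -1.12, SE 0.106, adjusted p = 5.47e-05 by edgeR). Among the libraries of the non-targeting guide, it stood at 69.0 CPM with DMSO and at 34.7 and 35.01 CPM with rapamycin. PKM (-0.66, adjusted p = 0.00516), SLC2A3 (-0.60, adjusted p = 0.0253), LDHA (-0.53, adjusted p = 0.000371) and ALDOC (-0.50, adjusted p = 0.00187) followed in size. The groups of SLC2A3, a glucose transporter, overlapped, and its call was lost by DESeq2 (adjusted p = 0.0768) and by edgeR without DMSO replicate 2 (-0.43, adjusted p = 0.150), DMSO replicate 3 (0.0782) or rapamycin replicate 3 (0.0965). Without HBG1 replicate 1 in both arms, 1 gene of this list was called higher and 11 lower. The glycolytic count ran from 5 (without HBG1 DMSO replicate 2) to 12 over the alternative settings.

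Of 15 other mitophagy receptors and adaptors, 14 were tested, 4 rose and none fell by edgeR, with a median log2 fold change of 0.21 and estimates above 0 for 9 genes and below 0 for 5. With the replicate block 6 rose and 1 fell, and without HBG1 replicate 1 in both arms 4 were called higher and 1 lower. PINK1, the kinase that marks damaged mitochondria, stood at 18.7, 14.97 and 15.4 CPM with the HBG1 sgRNA and DMSO and at 30.5, 23.4 and 30.9 CPM with rapamycin (log2 fold change 0.79, SE 0.128, adjusted p = 0.00182 by edgeR). Under the non-targeting guide it stood at 18.9 CPM with DMSO and at 30.6 and 28.9 CPM with rapamycin. NBR1, an autophagy adaptor, rose from 75.4 ± 4.61 to 123.6 ± 5.05 CPM (SD, n = 3 each; 0.71 on the log2 scale, adjusted p = 9.88e-05 by edgeR). TAX1BP1 (0.36, adjusted p = 0.0209) and FKBP8 (0.30, adjusted p = 0.0267), an adaptor and a mitochondrial receptor, also rose. The TAX1BP1 call was lost without DMSO replicate 2, DMSO replicate 3 or rapamycin replicate 3 (adjusted p up to 0.122 by edgeR), and the FKBP8 call without any 1 of these or without rapamycin replicate 2 (up to 0.144). The count of genes called higher ran from 2 (without HBG1 DMSO replicate 2) to 6.

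Of 18 partners, receptors and paralogs of VEGFA, ADM, NDRG1 and P4HA1, 11 were tested, none rose and 1 fell by edgeR, with a median log2 fold change of -0.11. With the replicate block 1 rose and 2 fell among 9, against 6.8% and 17.1% called in either direction over all genes in these fits. The gene was ADM2, the paralog of ADM, which fell from 2.02 ± 0.297 to 0.709 ± 0.203 CPM (SD, n = 3 each; log2 fold change -1.48, SE 0.417, adjusted p = 0.0432 by edgeR). Its call was lost under 10 of 20 alternative settings, among them the removal of HBG1 replicate 1 from both arms (-1.22, adjusted p = 0.144 by edgeR), which left no gene of this list called. The VEGFA receptor KDR had at most 4 counts in any library. No gene of any of the 5 lists passed the edgeR test between guides under rapamycin or the interaction.

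**Figure D4:**
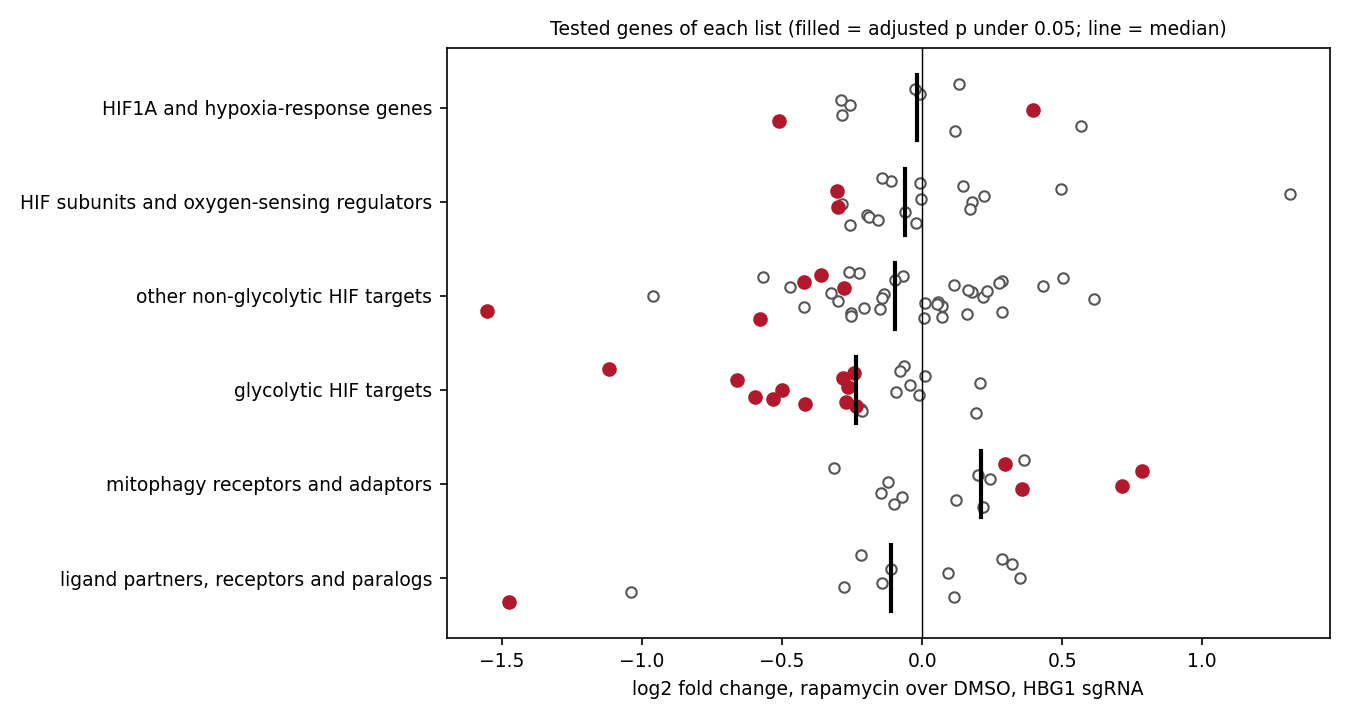
Log2 fold change of rapamycin over DMSO, HBG1 sgRNA libraries (horizontal axis) for the tested genes of the 10 named genes and the 5 lists (rows), with 1 point per gene, filled where the adjusted p was under 0.05, and a line at the median of each list. The medians run from -0.23 (glycolytic HIF targets) to 0.21 (mitophagy receptors and adaptors).

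Levels between genes were compared per kb of exon, as means over the 9 libraries. The length was that of all annotated exons of a gene joined, for instance 14431 bases for VEGFA and 3093 for P4HA1. A single transcript can be shorter, so the order depends on this choice of length. BNIP3L was highest at 8.65 CPM per kb, then HIF1A (7.26), BNIP3 (6.69), EGLN1 (6.29), P4HA1 (5.95), VEGFA (4.49), ANKRD37 (3.30), EGLN3 (2.28), NDRG1 (0.309) and ADM (0.166). The place of BNIP3L came from the rapamycin libraries. In the HBG1 sgRNA DMSO libraries HIF1A (7.75 ± 0.830, SD, n = 3), BNIP3 (7.69 ± 0.434) and BNIP3L (7.52 ± 0.513 CPM per kb) differed by less than their spread. The ranges over libraries overlapped for every pair of neighbours in this order except EGLN3 and NDRG1. The upper 8 genes were thus read at moderate levels and NDRG1 and ADM, both often strongly induced in hypoxic cells, at low ones.

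Across the 9 libraries, the log2 CPM of HIF1A was ranked against 11498 well-expressed genes by Pearson correlation. The 5 most alike were INTS2 (0.957), RLIM (0.956), ZNF28 (0.941), ATAD2 (0.940) and SF3B1 (0.936), none of them a gene of the lists above. EGLN1 (0.645), EGLN3 (0.563) and P4HA1 (0.532) came nearest among the hypoxia-response genes, but only at ranks 1105, 1722 and 1940. Many genes outside the pathway were thus more like HIF1A than they were. VEGFA (0.276) and BNIP3 (0.158) were lower, and ANKRD37 (-0.293) and BNIP3L (-0.425) below 0. These values describe 9 libraries that share group, replicate and depth, and they carry no test.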

How the data were processed

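The authors deposited whole-number read counts per Ensembl gene, 1 column per library. The submitters' processing notes name STAR 2.7.3a, featureCounts (Subread 2.0.0) and GRCh38. The annotation release, the strand setting and the handling of reads with several matches are not given in the sources used here. Per the labels' protocols, poly-T selected RNA was prepared with a NEBNext Ultra kit. Symbols, positions and exon lengths (all annotated exons of a gene joined) came from GENCODE 29 (99.47% of IDs matched), upstream sequences from RefSeq.

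Groups came from sample titles. The tests used edgeR 4.0.16 (R 4.3.3) with filterByExpr (minimum count 10), TMM scaling, 1 quasi-likelihood fit over 9 libraries with 1 mean per group, and Benjamini-Hochberg adjustment over 23675 genes. Each SE was derived from a fold change and its F statistic, as their quotient after taking the root of F. The fit was also run on simulated counts without replicate effects, which cannot show how it handles the difference of replicate 1. Rapamycin with the non-targeting sgRNA and the guides under DMSO were not tested, since 1 arm is a single library, which the tested interaction also uses. Levels are TMM-scaled CPM. Alternatives included DESeq2 1.42.0 and limma 3.58.1 (voom).

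Deviations of same-numbered HBG1 sgRNA libraries from their group means correlated at 0.553, 0.278 and 0.231 over 11498 genes. All were above 0.1, the limit set for using the numbers as pairs. Crossed replicates 2 and 3 reached 0.258 and 0.194, also above it. The check therefore sets replicate 1 apart in both treatments but cannot decide how replicates 2 and 3 pair. The labels do not state a pairing, so calls with the replicate block depend on this assumption. Replicates differed by more than sampling noise (chi-square per gene 4.58 to 16.8).

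The genes and lists were chosen with earlier results of these data known. Printed stretches leave out annotated exons or are at most 30 bases long. Named from the lists were HIF subunits, prolyl hydroxylases, called regulators and up to 5 called genes of each other list with the largest change. CA9, EPO and KDR were named besides.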

Additional observations from a re-analysis of the deposited data

How the results depend on the processing

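Across 20 alternative settings, or as many as could be fitted, VEGFA kept its direction and its call with the HBG1 sgRNA, and BNIP3L kept its direction and lost its call in 4. EGLN1 gained a call in 4, BNIP3 in 2, and HIF1A and NDRG1 in 1 each. Leaving out 1 library in turn, 664 to 1731 genes were called for rapamycin with the HBG1 sgRNA, against 1609, and the counts were 664 without DMSO replicate 2, 693 without rapamycin replicate 3 and 749 without DMSO replicate 3. The replicate block called 3441, against 1377 on the same libraries without it, and the additive model 3263. Between guides under rapamycin, 7 genes were called, 3 to 8 with 1 library left out (3 without non-targeting rapamycin replicate 1), 91 with no filter, 13 by DESeq2, 21 with the replicate block over all libraries and 37 without HBG1 replicate 1 in both arms. For the interaction, against 1, the count was 0 to 4 with 1 library left out, 0 by library size only, at a mean CPM of at least 1 and by DESeq2, 8 with no filter, 3 by limma voom, 3 with the replicate block over all libraries, 5 with it within each guide and 4 without HBG1 replicate 1 in both arms. The causes were not tested. The fits with HBG1 replicate 1 left out, the list counts and the level scalings were chosen after seeing the data. ADM has no value at a mean CPM of at least 1. For rapamycin with the HBG1 sgRNA it also has none in the fits on those libraries alone, and no adjusted p by DESeq2.

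Signs turned only for values that had not passed the test of their comparison. With the HBG1 sgRNA, EGLN3 was at 0.031 under upper quartile scaling, 0.011 by library size only, 0.0024 at a mean CPM of at least 1, 0.010 by limma voom, 0.0086 with the replicate block, 0.12 in the additive model and -0.14 to 0.16 with 1 library left out. ADM was at -0.28 in the additive model, -0.95 without HBG1 replicate 1 in both arms and -0.44 to 2.41 with 1 library left out. ANKRD37 was at -0.0078 in the additive model and -0.055 to 0.29 with 1 library left out, and P4HA1 at 0.015 under upper quartile scaling and -0.098 to 0.069 with 1 library left out. Between guides, ADM was at 0.44 by limma voom, 0.79 with the replicate block and -1.53 to 2.98 with 1 library left out. NDRG1 was at 0.017 by limma voom, 0.035 with the replicate block and -0.30 to 0.28 with 1 library left out. ANKRD37 ran from -0.016 to 0.65 and P4HA1 from -0.086 to 0.030 with 1 library left out, and P4HA1 was at 0.029 without HBG1 replicate 1 in both arms. For the interaction, EGLN1 ran from -0.12 to 0.060 with 1 library left out. Depth limits ADM and NDRG1, whose counts reach 24 and 134 at most.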
